A study of Homo sapiens with 8 samples.

Results

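The 31 long non-coding RNA (lncRNA) genes described here are those of type lncRNA in GENCODE release 44 with a mean expected count of at least 1000 over 8 RNA-seq libraries, leaving out the SNHG genes, GAS5 and ZFAS1, so they were chosen by their measured counts. The libraries list 58219 genes, of which 14197 are lncRNAs in that release and 6386 of these had any count. H929 and KMS11 are established multiple myeloma (MM) cell lines that both carry the t(4;14) translocation. Each line was exposed for 24 h to 2 µM fluvastatin, a statin that inhibits HMG-CoA reductase, or to its solvent ethanol as the control, with 2 biological replicates per line and treatment. Each line is 1 culture model, so line differences are differences between H929 and KMS11 and carry no information on other MM cells. The rule used the mean over all libraries and therefore fixes the level of the members, which is given as a description, but not the direction of any comparison for the members that reached 1000 in both lines. A total of 15 lncRNAs at this level were left out by name.

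A lncRNA is a transcript without a long open reading frame that can act in the nucleus as a scaffold, as a decoy for RNA-binding proteins or miRNAs, or as the precursor of miRNAs and snoRNAs, and some lncRNA loci regulate a neighbouring gene through the act of being transcribed. Among the members, MALAT1 lies in nuclear speckles, where splicing factors gather, and NEAT1 is the RNA scaffold of paraspeckles. NORAD is an abundant cytoplasmic RNA linked to genome stability, OIP5-AS1 holds a site for miR-7, KCNQ1OT1 is the imprinted antisense RNA of the KCNQ1 domain, and MIR17HG is the precursor of the miR-17-92 cluster. Other lncRNAs of this kind overlap a protein-coding gene on the same strand, and a short-read count alone cannot always tell such a transcript from a long form of that gene.

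Libraries held from 26702515 to 41910446 expected counts, and the members took 0.353% to 0.451% of them. MALAT1 and NORAD together made up 47.1% to 59.2% of the member counts. In no group did the replicates agree within sampling noise, and precision at this level is set by that spread. The chi-square of the counts per degree of freedom was 44.1 between the KMS11 fluvastatin replicates and 9.64 to 16.1 in the other groups. In bulk RNA, fewer cells of a type and less RNA per cell cannot be told apart. Of the 9 plasma cell markers checked, 8 were at 1 TPM (a level scaled for transcript length and library total) or more in every library, while CD38 averaged 22.6 TPM in H929 and 0.025 TPM in KMS11 in ethanol. The B cell, myeloid and erythroid markers stayed under 1 TPM in every library, as did 2 of 3 T cell markers, with CD3E reaching 3.54 TPM. EPCAM, an epithelial marker, averaged 0.015 TPM in H929 and 33.9 TPM in KMS11 in ethanol, and KRT18 0.355 and 8.03 TPM, and the part of these marker differences in the results below was not tested.

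MIR17HG (chromosome 13 of GRCh38, 91347686 to 91397592, plus strand) held 6 of the miRNA genes that lie inside members, and its mature products from RefSeq are shown because this was the member that fell with fluvastatin across both lines. Capitals mark the seed, bases 2 to 8, by which a miRNA pairs with its targets. The first pair shares a seed, miR-18a-5p differs from it within the seed, and the miR-19 pair and miR-92a-3p have seeds of their own.
miR-17-5p: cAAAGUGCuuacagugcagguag
miR-20a-5p: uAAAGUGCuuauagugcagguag
miR-18a-5p: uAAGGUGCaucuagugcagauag
miR-19a-3p: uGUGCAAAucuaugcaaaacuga
miR-19b-3p: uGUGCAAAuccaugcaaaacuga
miR-92a-3p: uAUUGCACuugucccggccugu
The libraries measure the host transcript and not these mature miRNAs. DANCR, NEAT1, CYTOR and MIR4435-2HG also held a miRNA gene each, so 5 of 31 members (16.1%) did, against 3.15% of the other 1875 lncRNAs tested, which were shorter (median span 6138 bases, against 11300 for the members). CYTOR and MIR4435-2HG carry identical miR-4435 sequences in near-identical duplicated loci on chromosome 2.

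Levels of different genes can be compared only per length, and on the TPM scale averaged over all libraries MALAT1 was highest at 297 TPM. ENSG00000259001, DANCR, NORAD and CYTOR followed at 232, 94.5, 71.5 and 70.4 TPM, and KCNQ1OT1, the member with the most exon bases, was lowest at 0.364 TPM. ENSG00000259001 contains the abundant gene RPPH1, and its values cannot be separated from those of RPPH1. The order of NORAD and CYTOR was not the same in the lines, with 54.4 and 65.2 TPM in H929 and 83.2 and 59.4 TPM in KMS11 in ethanol. By mean expected count, which grows with length, MALAT1 led with 55137, before NORAD with 20200 and OIP5-AS1 with 8453. At the lower edge, NNT-AS1 (1089), ENSG00000272405 (1052) and MIR17HG (1006) lay just inside the limit, and DLEU2 (888), HELLPAR (860) and FTX (830) just outside it. Of the members, 19 reached a mean of 1000 in both lines, 7 in KMS11 only and 5 in H929 only.

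**Figure D1:**
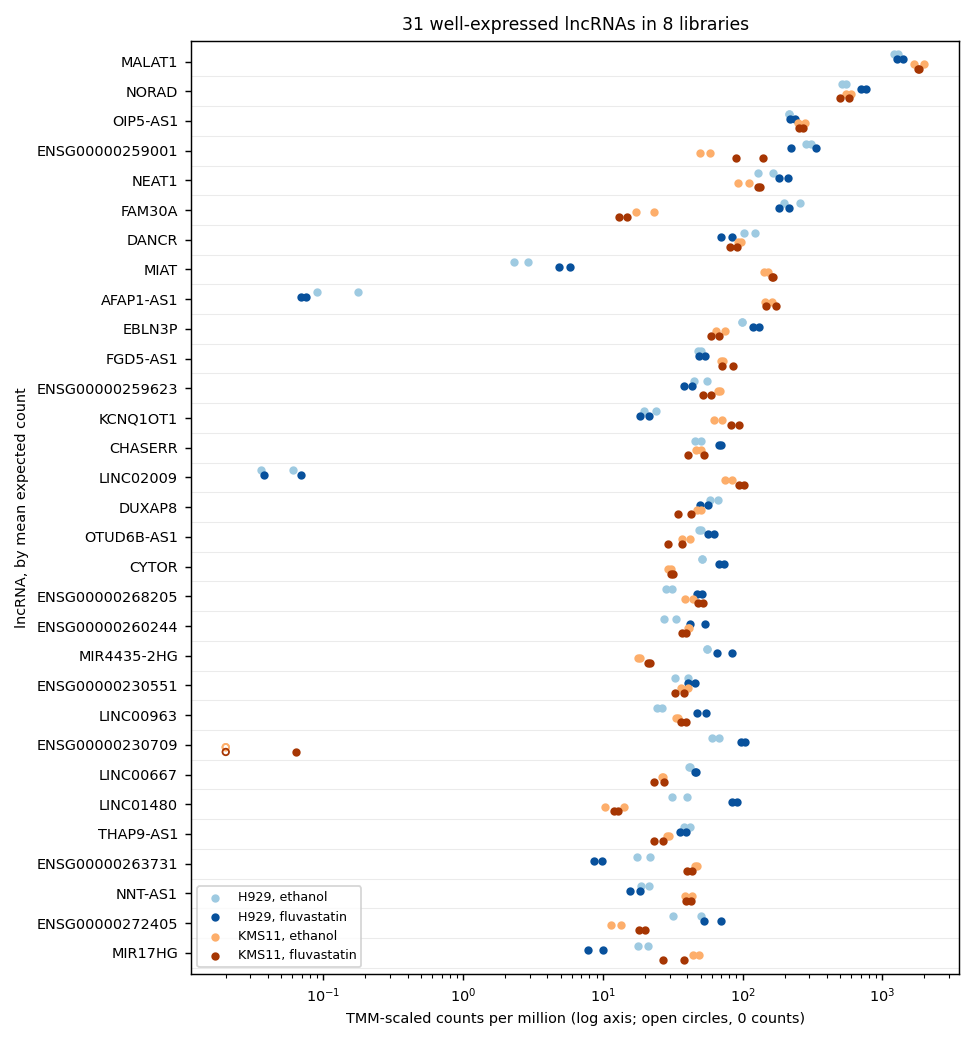
Level of the 31 lncRNAs in each of the 8 libraries, as CPM scaled by TMM on a log axis, with 1 point per library and colours for line and treatment. Most members lie within a narrow range across libraries, whereas AFAP1-AS1 and LINC02009 are near 0 in H929 and ENSG00000230709 is near 0 in KMS11.

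The question of the first comparison was how far the untreated lines differ. Between KMS11 and H929 in ethanol, 27 of the 31 members differed (adjusted p under 0.05 from edgeR's quasi-likelihood test over all 16719 genes tested), 14 higher in KMS11 and 13 lower. Over all genes tested 67.2% differed (32.4% higher and 34.8% lower), and over the 5902 genes tested with a mean count of at least 1000 it was 73.1%. The rule favours a difference for members that reached the level in 1 line, and all 12 such members differed. Of the 19 members at the level in both lines, 15 differed (78.9%), 7 higher and 8 lower in KMS11. The members' median log2 fold change was 0.07, against -0.05 for all genes tested.

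AFAP1-AS1, LINC02009 and ENSG00000230709 were present in essentially 1 line. AFAP1-AS1, an antisense RNA of the actin-binding protein gene AFAP1, had 3 and 5 counts in the H929 ethanol libraries and 6940 and 5850 in those of KMS11. Relative to library totals, AFAP1-AS1 was 1250-fold higher in KMS11, with a 95% interval for counting error of 632 to 2880. LINC02009 (chromosome 3, 46416524 to 46423591, minus strand) had 2 and 1 counts in H929 and 3221 and 3424 in KMS11, a ratio of 1720 with an interval of 591 to 8350. ENSG00000230709 showed the opposite pattern, with 2263 and 1702 counts in H929 and none in either KMS11 ethanol library, so that it was higher in H929 by 1700-fold against a floor of 3 counts over the group, with a 95% lower limit for counting error of 1380. Counts are not independent molecules where PCR duplicates occur, so these intervals and floors cover counting error alone. Adding fluvastatin left these patterns in place, with at most 2 counts of AFAP1-AS1 or LINC02009 in an H929 library and of ENSG00000230709 in a KMS11 library.

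Neighbours of ENSG00000230709 and AFAP1-AS1 differed between the lines in the opposite direction. ENSG00000230709 (chromosome 17, 16975999 to 16981353, minus strand) ends 3881 bases before TNFRSF13B, the gene of the BAFF and APRIL receptor TACI, on the same strand. TNFRSF13B was at 0.0601 and 0 CPM (counts scaled by TMM to a common library total) in the H929 ethanol libraries and at 9.58 and 10.4 CPM in those of KMS11. AFAP1-AS1 shares 5135 of its exon bases (42.2%) with AFAP1 exons on the other strand. AFAP1 was lower in KMS11, by a log2 fold change of -2.25 (adjusted p = 2.25e-05), where its antisense RNA was abundant. AFAP1 was present in both lines, at 5.23 and 4.34 CPM in H929 and 1.19 and 0.81 CPM in KMS11 in ethanol. With fluvastatin AFAP1 rose in H929 (0.69, adjusted p = 0.0329) and in KMS11 (1.21, adjusted p = 0.0453), whereas AFAP1-AS1 had 0.07 in KMS11 without passing.

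MIAT, an RNA first linked to myocardial infarction, was at 2.92 and 2.31 CPM in H929 and at 151 and 142 CPM in KMS11 in ethanol. The line difference was 5.80 in log2 (standard error 0.14, adjusted p = 9.15e-10), and the counts of MIAT were not whole in any library, so fragments shared with other genes enter its values. FAM30A, a transcript of the immunoglobulin heavy chain region of chromosome 14 (105879976 to 105932642), was higher in H929, at 258 and 197 CPM against 17.3 and 23.2 CPM, a log2 difference of -3.49 (standard error 0.18). The groups do not overlap for either gene.

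Members higher in KMS11 at a smaller size were KCNQ1OT1 (log2 fold change 1.62), MIR17HG (1.27), ENSG00000263731 (1.23) and NNT-AS1 (1.05). Members lower in KMS11 were ENSG00000259001 (-2.46), ENSG00000272405 (-1.72), MIR4435-2HG (-1.62) and LINC01480 (-1.53). RPPH1, which lies inside ENSG00000259001 and cannot be separated from it, was also lower in KMS11 (log2 fold change -1.96, adjusted p = 6.98e-05). KCNQ1OT1 was at 23.9 and 19.6 CPM in H929 and at 71.5 and 62.5 CPM in KMS11. Its sense partner KCNQ1, a potassium channel gene, also was higher in KMS11 (log2 fold change 3.23, adjusted p = 6.35e-06) at a mean level of 0.95 TPM there. CYTOR and MIR4435-2HG were both lower in KMS11, by log2 fold changes of -0.77 and -1.62, but the loci are near-identical and the counts of both were not whole in any library, so each single value is uncertain.

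The most abundant lncRNAs differed less. MALAT1 was at 1208 and 1291 CPM in H929 and at 1999 and 1688 CPM in KMS11 (log2 fold change 0.56, standard error 0.11, adjusted p = 0.0011). With a trend on GC content the MALAT1 value was 0.245, with trends on GC content and length it was 0.184 and did not pass (adjusted p = 0.0714), and on log2(TPM + 1) it was 0.971. NEAT1 went the other way, with 164 and 128 CPM in H929 and 111 and 93.0 CPM in KMS11 (log2 fold change -0.52, adjusted p = 0.0066). NORAD (0.10), DANCR (-0.24), CHASERR (0.00) and ENSG00000230551 (0.07) had log2 fold changes that did not pass the threshold, and 95% intervals reached from -0.10 to 0.31 for NORAD and from -0.48 to -0.0034 for DANCR.

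**Figure D2:**
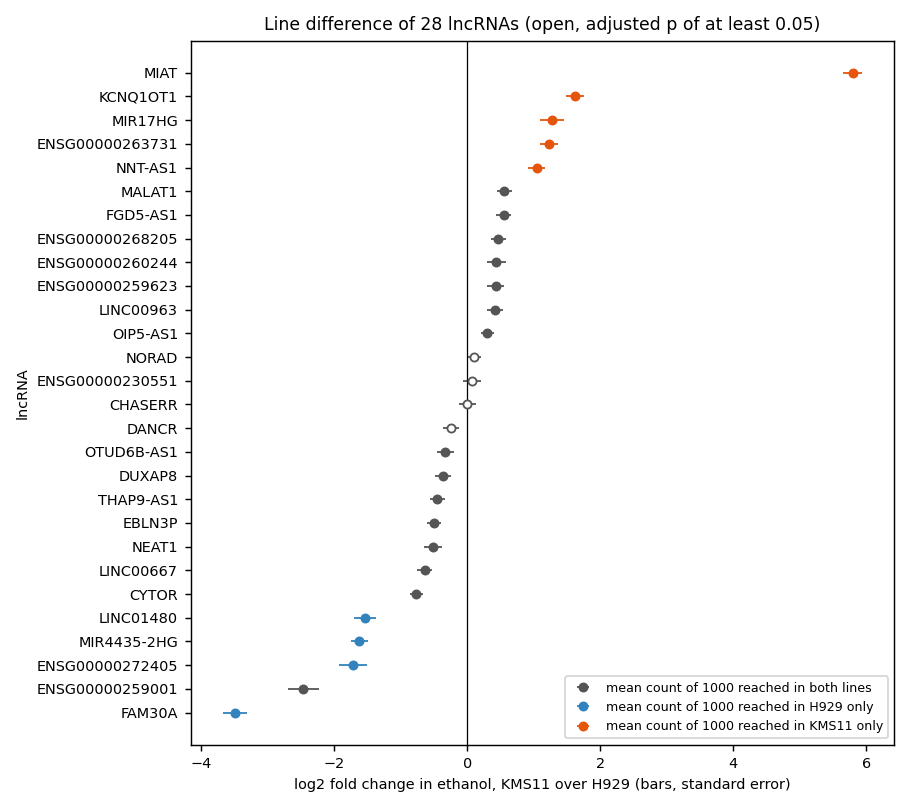
Log2 fold change of KMS11 over H929 in ethanol for the 28 lncRNAs with counts in both lines, with standard errors as bars, open symbols for members not past the threshold and colours for the line in which the mean count of 1000 was reached. MIAT lies far to the right at 5.80 and FAM30A far to the left at -3.49, and the grey members reached in both lines lie between -0.77 and 0.56 with the exception of ENSG00000259001 at -2.46. Values of ENSG00000259001 cannot be separated from those of RPPH1, which it contains.

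These small line differences depended on the correction for base composition. The exons of the members had a median GC content of 43.7%, against 46.8% in the other lncRNAs tested. With a per-library trend on GC content in the fit, again 27 members differed, but 10 were higher and 17 lower in KMS11. Several smaller differences also lost their calls when 1 ethanol library was removed, those of LINC00963, DUXAP8, NEAT1, OIP5-AS1, THAP9-AS1, OTUD6B-AS1, ENSG00000259623 and ENSG00000260244. With the GC trend, OIP5-AS1, ENSG00000259623, ENSG00000260244 and ENSG00000268205 lost their calls, while CHASERR, DANCR, NORAD and ENSG00000230551 passed as lower in KMS11, NORAD at -0.22 (adjusted p = 0.00871), whereas on log2(TPM + 1) NORAD was higher in KMS11 (0.60, adjusted p = 0.00587). On log2(TPM + 1) with limma, 16 were higher and 7 lower, and the median of all genes moved by 0.28 on the log2 scale.

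In H929, fluvastatin changed 16 of the 31 members, 13 of them upwards. DANCR, ENSG00000263731 and MIR17HG fell. Of all genes tested 36.7% changed in H929, 18.6% upwards and 18% downwards, and of genes with a mean count of at least 1000 it was 51.2%, with 20.4% upwards and 30.9% downwards. The members stood at 41.9% upwards and 9.68% downwards, and the other lncRNAs tested at 16.8% and 4.53%. The median log2 fold change was 0.15 over the members and 0.00 over all genes tested.

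LINC01480 (chromosome 19, 41535183 to 41536904, plus strand) rose the most, from 39.8 and 31.2 CPM in ethanol to 91.2 and 83.5 CPM in fluvastatin. Its log2 fold change had a 95% interval of 0.98 to 1.61 (adjusted p = 0.000229). MIAT rose from 2.92 and 2.31 to 4.88 and 5.77 CPM (log2 fold change 1.02), at a level far below that in KMS11. LINC00963, the third, rose from 26.4 and 24.2 to 54.7 and 47.0 CPM (log2 fold change 1.01). For each of these genes both fluvastatin libraries lay above both ethanol libraries.

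Next were ENSG00000268205 (0.72) and ENSG00000260244 (0.66) in log2 fold change. ENSG00000230709, the H929 lncRNA upstream of TNFRSF13B, rose from 68.0 and 60.6 to 103 and 97.9 CPM (log2 fold change 0.65). NORAD rose by 0.45 (standard error 0.11, adjusted p = 0.0078), from 517 and 549 to 699 and 759 CPM, and by 0.259 with the trends on GC content and length.

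NEAT1 rose by 0.43 in log2 fold change (adjusted p = 0.0315), from 164 and 128 to 210 and 183 CPM, but with trends on GC content and length the value was 0.135 and did not pass (adjusted p = 0.367). Of the 17 paraspeckle protein genes checked, which encode the partners of NEAT1 in that body, 13 fell in H929 and none rose, with a median log2 fold change of -0.45, where 30.9% of genes with a mean count of at least 1000 fell. RBM14 (-0.85) and DAZAP1 (-0.71) had the largest falls. The core paraspeckle genes SFPQ (-0.44) and NONO (-0.33) fell as well, while PSPC1 was at -0.15 without passing.

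MALAT1 itself did not pass in H929 (log2 fold change 0.10, standard error 0.11, adjusted p = 0.513), with 1208 and 1291 CPM in ethanol and 1273 and 1405 CPM in fluvastatin, groups that overlap. Of the 18 genes for nuclear speckle proteins, 13 fell in H929 and none rose, against the same 30.9%, with a median of -0.60. These included the splicing factors SRSF2 (-1.05) and U2AF2 (-1.02) and the speckle protein PNN (-1.13). Genes of nuclear RNA decay, which removes many lncRNAs, moved in both directions, 7 of 12 falling and 2 rising. SRRT, which links capped RNA to that pathway, fell by 1.55 on the log2 scale, and the adaptor genes ZCCHC8 (0.45) and ZFC3H1 (0.45) rose.

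Of the falls in H929, MIR17HG went from 17.7 and 20.9 to 7.87 and 10.0 CPM (log2 fold change -1.10, standard error 0.19, adjusted p = 0.0014). ENSG00000263731 (chromosome 17, 81878425 to 81881106, minus strand) went from 17.5 and 21.9 to 9.83 and 8.62 CPM (-1.09, standard error 0.14). It lies 6729 bases beyond ALYREF, an mRNA export gene on the same strand, which fell by 1.37 on the log2 scale in H929 (adjusted p = 8.3e-05). ARHGDIA, on its other side at 7047 bases on the same strand, had -0.28 in H929 without passing (adjusted p = 0.36). Between the lines in ethanol ENSG00000263731 was higher in KMS11 (1.23), whereas ALYREF had -0.32 without passing and ARHGDIA was lower (-1.49). In KMS11 the fluvastatin values were -0.14 for ENSG00000263731, 0.18 for ALYREF and 0.94 for ARHGDIA, and none passed. DANCR, which holds the snoRNA gene SNORA26 and is the snoRNA host among the members, went from 102 and 123 to 69.9 and 83.5 CPM (-0.55, standard error 0.12).

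The windows around the starts of NORAD, DANCR and MIR17HG are shown as a member that rose and members that fell. They are the RefSeq windows of 300 bases on GRCh38.p14, 250 before and 50 after the start, with CACGTG and CCAAT in capitals on either strand.
NORAD, chr20:36050911-36051210, minus strand: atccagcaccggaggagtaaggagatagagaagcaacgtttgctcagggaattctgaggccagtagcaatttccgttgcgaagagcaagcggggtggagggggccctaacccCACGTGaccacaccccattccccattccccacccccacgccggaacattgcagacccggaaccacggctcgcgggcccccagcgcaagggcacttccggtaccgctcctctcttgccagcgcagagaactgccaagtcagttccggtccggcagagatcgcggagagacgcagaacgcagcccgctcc
DANCR, chr4:52712144-52712443, plus strand: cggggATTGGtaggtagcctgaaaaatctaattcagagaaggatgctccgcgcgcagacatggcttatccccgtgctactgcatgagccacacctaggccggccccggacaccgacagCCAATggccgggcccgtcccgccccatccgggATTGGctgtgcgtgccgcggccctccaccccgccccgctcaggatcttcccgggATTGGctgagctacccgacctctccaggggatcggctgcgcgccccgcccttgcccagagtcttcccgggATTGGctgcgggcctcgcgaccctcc
MIR17HG, chr13:91347437-91347736, plus strand: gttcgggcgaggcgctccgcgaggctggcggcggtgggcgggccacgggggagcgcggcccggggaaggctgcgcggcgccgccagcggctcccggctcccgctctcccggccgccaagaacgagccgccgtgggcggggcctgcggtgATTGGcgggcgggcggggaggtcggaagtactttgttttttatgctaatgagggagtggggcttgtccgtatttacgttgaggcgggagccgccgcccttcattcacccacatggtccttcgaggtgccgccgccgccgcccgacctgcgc
DANCR had 5 copies of CCAAT or its reverse ATTGG, a number reached by 0.359% of the 35116 windows in the table, MIR17HG had 1, and NORAD had 1 CACGTG. Windows were found for 16 members, of which 9 held CCAAT (56.2%, against 34.6% of all windows) and 3 held CACGTG (18.8%, against 7.26%). TGACGTCA and TGATGNAA were in none of the 16, and in 1.85% and 3.62% of all windows. A match is a description of letters and not of binding, and the windows of CHASERR, FAM30A, LINC00963 and MIR4435-2HG lie over 10000 bases from the GENCODE start.

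Leaving out 1 library at a time, 11 to 16 members were called in H929. The calls of 10 members held without each library, including LINC01480, LINC00963, MIAT, ENSG00000268205, NORAD, MIR17HG and ENSG00000263731. NEAT1 lost its call when ethanol replicate 2 of H929 (log2 fold change 0.28) or fluvastatin replicate 1 of H929 (0.36) was removed, and DANCR without the same libraries (-0.40 in both fits). With the GC trend, 13 rose and 6 fell.

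In KMS11, 1 of the 31 members changed, against 2.03% of all genes tested (1.66% higher and 0.371% lower) and 2.93% of those with a mean count of at least 1000. At an unadjusted p under 0.05 there were 9 members, and DESeq2 called 2. The shares of all genes were not counted for either, so these numbers allow no comparison with other genes. The KMS11 fluvastatin replicates differed the most of the replicate pairs, and the part of this in the count was not tested. The member was ENSG00000259001, with 58.1 and 49.8 CPM in ethanol and 141 and 89.6 CPM in fluvastatin (log2 fold change 1.09, standard error 0.22, adjusted p = 0.0374). It is a transcript of 638 bases on chromosome 14 (20343048 to 20343685, minus strand) that contains RPPH1, the RNA subunit of RNase P, over 333 of its bases, and its counts were not whole in any library, so its values cannot be separated from those of that abundant gene. RPPH1 was at 1341 and 1561 CPM in ethanol and at 2946 and 1595 CPM in fluvastatin in KMS11, and its log2 fold change of 0.65 did not pass (adjusted p = 0.196). The call of ENSG00000259001 was lost on removing ethanol replicate 1 of H929 (adjusted p = 0.0506), either ethanol library of KMS11 (0.223 and 0.334) or fluvastatin replicate 1 of KMS11 (0.15), and no member was called in any of these fits. With fluvastatin replicate 2 of KMS11 removed, 3 members were called.

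Among values that did not pass in KMS11, FAM30A had a log2 fold change of -0.54 (adjusted p = 0.143) and MIR17HG of -0.52 (adjusted p = 0.158), the latter with 44.3 and 48.8 CPM in ethanol and 26.8 and 38.0 CPM in fluvastatin. With the GC trend 4 more members passed in KMS11 and none was lost. Among the 4 were FAM30A (-0.77, adjusted p = 0.00429) and MIR17HG (-0.41, adjusted p = 0.0487). None of the genes on the lists of paraspeckle, nuclear speckle and RNA decay proteins passed in KMS11, where 2.03% of all genes tested did. The list medians lay between -0.18 and -0.15 there. By the test of the difference, the response was higher in KMS11 than in H929 for 10 of 18 nuclear speckle genes and 4 of 17 paraspeckle genes, and none was lower, whereas of 12 RNA decay genes 3 were higher and 1 was lower. Over all genes tested, 9.92% had a higher and 8.48% a lower response in KMS11. At a mean count of at least 1000 it was 16.3% and 11.7%. For SRRT the KMS11 interval was -0.15 to 0.29, beside its fall in H929.

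Across both lines, 2 of the 31 members changed, against 8.23% of all genes tested (4.78% higher and 3.45% lower) and 12.4% of those with a mean count of at least 1000. MIR17HG fell (log2 fold change -0.80, standard error 0.17, adjusted p = 0.0296), and both fluvastatin libraries lay below both ethanol libraries in each line. ENSG00000268205 (chromosome 19, 57304305 to 57308562, plus strand) rose by 0.50 (standard error 0.12, adjusted p = 0.0366), from 31.4 and 28.4 to 47.0 and 51.4 CPM in H929 and from 43.9 and 38.6 to 48.3 and 51.8 CPM in KMS11. At an unadjusted p under 0.05 there were 16 members, but the share of all genes tested at that limit was not counted. Neither call held when any single H929 library or KMS11 ethanol replicate 2 was removed, with adjusted p values from 0.0561 to 0.107 for MIR17HG, and that of ENSG00000268205 was also lost when fluvastatin replicate 2 of KMS11 was removed (adjusted p = 0.0518).

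**Figure D3:**
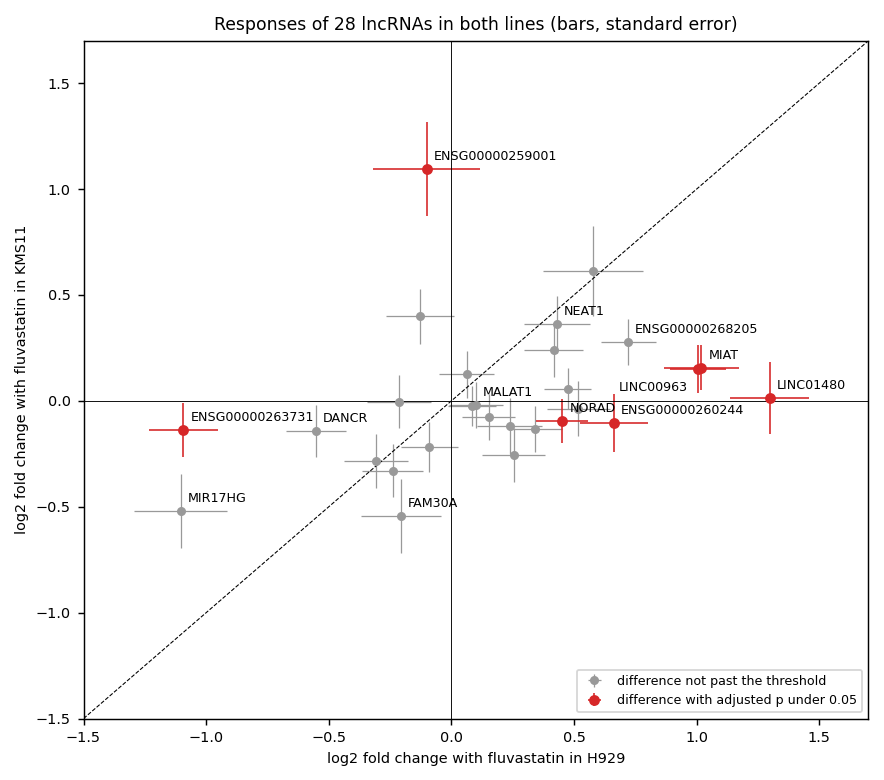
Log2 fold change with fluvastatin in H929 (horizontal axis) and in KMS11 (vertical axis) for the 28 lncRNAs with counts in both lines, with standard errors as bars and the line of equal response dashed. The 7 members in red are those whose responses differed, of which 5 lie to the right near 0 in KMS11, ENSG00000259001 lies above and ENSG00000263731 lies to the left.

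The responses of the lines differed for 7 of the 31 members by the test of the difference itself, against 18.4% of all genes tested (9.92% higher and 8.48% lower in KMS11) and 28% of those with a mean count of at least 1000. NORAD (-0.55), LINC01480 (-1.28), MIAT (-0.86), LINC00963 (-0.86) and ENSG00000260244 (-0.77) had a lower response in KMS11, given as KMS11 minus H929 in log2. LINC01480 stood at 10.3 and 14.3 CPM in ethanol and between these values in both fluvastatin libraries in KMS11, so that the groups overlap, beside its rise in H929. ENSG00000263731 (0.95) and ENSG00000259001 (1.19) had a higher response in KMS11, the former with a log2 fold change of -0.14 in KMS11 that did not pass. For NEAT1 the difference was -0.07 (95% interval -0.44 to 0.31), and for MIR17HG it was 0.58 (95% interval 0.08 to 1.09, adjusted p = 0.142).

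Of these 7 calls, those of LINC01480 and LINC00963 held without each library. Removing KMS11 ethanol replicate 1 gave 2 calls, and removing H929 fluvastatin replicate 2 gave 3. There were 4 when H929 ethanol replicate 1 or KMS11 ethanol replicate 2 was removed, and 11 when the removed library was KMS11 fluvastatin replicate 2. For NORAD the adjusted p rose from 0.0307 to between 0.0529 and 0.131 without the libraries on which its call rested, which were those other than H929 fluvastatin replicate 1 and replicate 2 of KMS11 in fluvastatin.

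On the strand of a member, protein-coding exons covered at least 1 base of the exons of 6 members (19.4%), against 10.1% of the other lncRNAs tested, and most of the exon bases of 2 (6.45%, against 3.79%). The members were longer, with a median of 9834 exon bases against 2527, and by gene span, introns included, the overlap was 19.4% in both sets. The 2 were ENSG00000259623 (chromosome 17, 41848518 to 41851447, minus strand), all of whose 2930 bases lie in exons of KLHL11, and ENSG00000260244 (chromosome 4, 155734448 to 155737062, plus strand), with 2612 of 2615 bases in exons of GUCY1A1. In the annotation of the files, KLHL11 had 1 transcript of 2383 bases, against 7402 exon bases in release 44. Counting only transcripts that both annotations hold under the same version, neither lncRNA shared a base with its gene. A transcript that changed between the annotations drops out of this count, so the count cannot show that the overlap was absent. The length given for GUCY1A1 in the files was 3405 bases, against 9205 for its longest transcript in release 44. The counts of both members and of both genes were whole numbers in all 8 libraries, so that no fragment was divided between a member and its gene. This does not separate them, since a fragment of a longer form that the annotation of the files lacks can count wholly for the lncRNA.

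ENSG00000259623 was at 45.0 and 55.8 CPM in H929 and at 69.1 and 66.6 CPM in KMS11 in ethanol, and KLHL11, an adaptor of a ubiquitin ligase, was at 37.6 and 42.9 and at 48.7 and 48.5 CPM. The line difference was 0.43 for the lncRNA and 0.27 for KLHL11 in log2 fold change, both past the threshold. With fluvastatin in H929, KLHL11 fell by 0.40 on the log2 scale (adjusted p = 0.0149), and the lncRNA had -0.31 without passing (adjusted p = 0.0917).

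ENSG00000260244 rose in H929 from 27.2 and 33.5 to 42.2 and 53.7 CPM (log2 fold change 0.66, standard error 0.14, adjusted p = 0.0045). GUCY1A1, a subunit of the nitric oxide receptor, rose from 92.7 and 111 to 125 and 149 CPM (0.43, adjusted p = 0.0175). The responses of the lines differed for both, by -0.77 for the lncRNA and by -0.63 for GUCY1A1 (adjusted p = 0.0271). For this pair and for ENSG00000259623, the sign of the lncRNA was that of its gene in each of the comparisons between the lines in ethanol, within H929 and within KMS11. The signs were also shared by ENSG00000230551, a member with partial overlap, and its gene CSNK1A1, where no value passed.

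The other 4 overlaps were partial. ENSG00000230551 had 4194 bases (48.6%) in CSNK1A1 exons and the rest in its introns, and the counts of both genes were not whole in any library. Its log2 fold change in H929 was 0.24, beside 0.15 for CSNK1A1, the casein kinase gene, and neither passed. THAP9-AS1 had 482 bases in exons of SEC31A, a coat protein gene of vesicles that leave the endoplasmic reticulum. SEC31A rose in H929 (0.35, adjusted p = 0.0129), whereas THAP9-AS1 had -0.09. CHASERR, a regulator of its neighbour CHD2, shared 121 bases with that gene. CHASERR rose in H929 by 0.52 (adjusted p = 0.011, and 0.0535 without H929 ethanol replicate 1), and CHD2 had 0.14 without passing. OIP5-AS1 shared 708 bases with NUSAP1 and ENSG00000285920 and had a log2 fold change of 0.08 in H929.

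**Figure D4:**
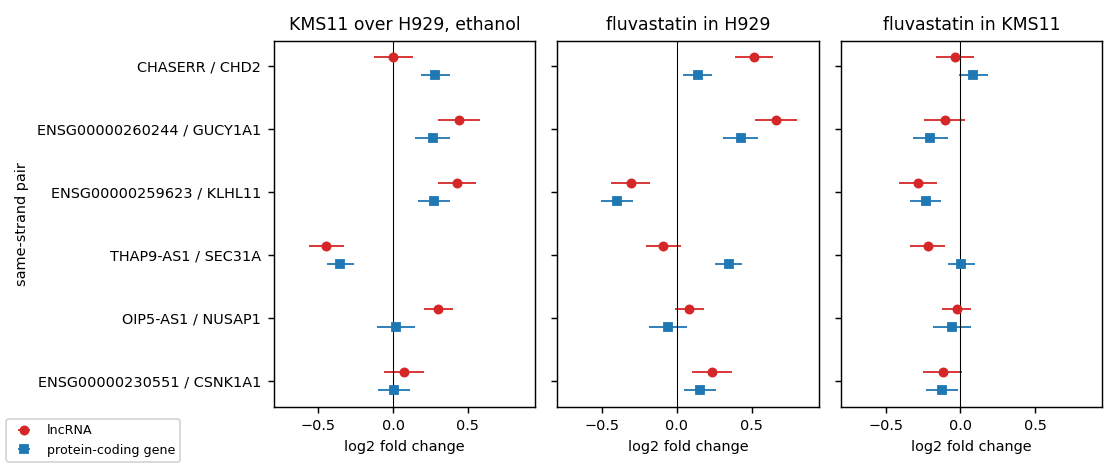
Log2 fold changes with standard errors of the 6 lncRNAs that share exon bases with a protein-coding gene on the same strand (red circles) and of that gene (blue squares), for KMS11 over H929 in ethanol, fluvastatin in H929 and fluvastatin in KMS11. ENSG00000260244 and ENSG00000259623 lie on the same side of 0 as GUCY1A1 and KLHL11 in all 3 panels, as does ENSG00000230551 with CSNK1A1, where no value passed. THAP9-AS1 and SEC31A lie apart for fluvastatin in H929.

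Of the other 25 members none shared an exon base on its own strand. A total of 18 members had no such overlap and counts that were whole in all libraries. Of these 18, 9 changed in H929 (6 up, 3 down), none changed in KMS11 and 17 differed between the lines. Of all genes tested, 36.7% changed in H929, 2.03% in KMS11 and 67.2% between the lines. At a mean count of at least 1000 it was 51.2%, 2.93% and 73.1%. Some of the 18 reached the level in 1 line only, where the rule favours a line difference. On the other strand, 12 members shared exon bases with a protein-coding gene (38.7%, against 36.8% of the other lncRNAs). In this group 2 rose and 1 fell in H929, and 5 were higher and 6 lower in KMS11 in ethanol. Over all genes tested, 18.6% rose and 18% fell in H929, and 32.4% were higher and 34.8% lower in KMS11. The counting distinguished strands, since 25 genes that lie wholly inside exons of abundant genes on the other strand had a median of 0.00776% of the counts of those genes. No member was divergent from a protein-coding gene within 1000 bases without overlapping it, against 15.9% of the other lncRNAs tested. The starts of 5 members (16.1%) lay within 1000 bases of a start on the other strand, against 30.4% of the other lncRNAs tested.

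The 5 members that hold a miRNA gene included 3 that rose in H929, namely CYTOR (0.47), NEAT1 (0.43) and MIR4435-2HG (0.42), and 2 that fell, DANCR and MIR17HG. Of all genes tested 36.7% changed in H929, and of those with a mean count of at least 1000 it was 51.2%. CYTOR and MIR4435-2HG are near-identical loci with counts that were not whole in any library, so their rises are not separate cases. CYTOR went from 50.8 and 51.3 to 67.8 and 74.0 CPM, and MIR4435-2HG from 55.7 and 55.7 to 65.1 and 83.5 CPM. MIR4435-2HG lost its call when H929 ethanol replicate 1, its replicate 2 or the second H929 fluvastatin replicate was removed (log2 fold changes 0.45, 0.43 and 0.26). MIR4435-2HG spans BCL2L11, which encodes the apoptosis inducer BIM, on the other strand and shares 727 exon bases with it. BCL2L11 rose in H929 by 1.35 (adjusted p = 2.57e-05) and had 0.22 in KMS11 without passing. ACOXL, which also overlaps the span of MIR4435-2HG on the other strand, fell in H929 (-0.52, adjusted p = 0.0386). Between the lines in ethanol MIR4435-2HG was lower in KMS11 (-1.62), whereas ACOXL was higher (1.63) and BCL2L11 had 0.28 without passing.

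The remaining calls in H929 were small. EBLN3P, which derives from a bornavirus-like insertion, rose by 0.34 (adjusted p = 0.0322), and this was lost when either H929 ethanol library or replicate 2 in fluvastatin was removed. ENSG00000272405 rose by 0.58 (adjusted p = 0.0495), lost when H929 ethanol replicate 2, replicate 1 of H929 in fluvastatin or either KMS11 ethanol library was removed. OIP5-AS1 was at 214 and 216 CPM in ethanol and at 219 and 236 CPM in fluvastatin in H929. KCNQ1OT1 had log2 fold changes of -0.13 in H929 and 0.40 in KMS11 (adjusted p = 0.144), and FGD5-AS1 of 0.06 and 0.12, without passing.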

How the data were processed

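The 8 libraries are those of H929 and KMS11 in ethanol or fluvastatin, 2 per group. The authors made stranded libraries of total RNA depleted of ribosomal RNA, aligned reads with STAR 2.5.2b to GRCh38 with GENCODE release 26 and quantified genes with RSEM 1.3.0. They deposited expected counts, which are estimated and not normalized and in which RSEM divides fragments that several genes could give. The authors also deposited TPM values, scaled by effective length. FPKM was not used. Gene types, positions and exons were taken from GENCODE release 44, in which 57392 of the identifiers were found. Exons were merged over the transcripts of a gene and overlaps computed on this build.

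Rounded expected counts were tested in R 4.3.3 with edgeR 4.0.16 (filterByExpr with minimum count 10 and minimum total 15, TMM scaling, quasi-likelihood F test). P-values were adjusted by Benjamini and Hochberg over the 16719 genes kept, at a threshold of 0.05. All 31 members were kept. The standard error is the log2 fold change divided by the square root of F, and intervals from the fits span 1.96 standard errors either way. With the few degrees of freedom of the F test, these are narrower than 95% intervals. A fit of the group means gave the line difference, each line's response and their difference, which share control samples. The response across both lines came from terms for line and treatment. Fits were tested on simulated data. With 2 libraries per group, p-values rest on the spread between few samples.

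The members and lists were chosen with earlier results of these data known. The members named were the 12 with the highest counts, the 3 on each side of the limit, the largest called line differences (6 each way), responses (6 each way across lines, 5 each way within each) and response differences (4 each way), members with most of their exon bases in same-strand protein-coding exons, and well-known lncRNAs. Other members and ALYREF, ARHGDIA, TNFRSF13B, RPPH1, KCNQ1, AFAP1, BCL2L11 and ACOXL were named after their values were seen. Alternatives were DESeq2 1.42.0, limma 3.58.1 on log2(TPM + 1), other scalings and filters, GC and length trends, a replicate block, leaving out each library, and other limits on level and overlap. The overlap with transcripts listed in the files and the count over members without shared exons or divided fragments were added after seeing the data.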

Additional observations from a re-analysis of the deposited data

Results flagged for a closer look

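Fluvastatin responses were unlike in H929 and KMS11 for 7 of the 31 lncRNAs by the test of the difference (KMS11 minus H929 in log2, edgeR's quasi-likelihood test, 2 libraries per group). The response was lower in KMS11 for LINC01480 (-1.28, adjusted p = 0.00547), LINC00963 (-0.86, adjusted p = 0.00644), MIAT (-0.86, adjusted p = 0.0115), ENSG00000260244 (-0.77, adjusted p = 0.024) and NORAD (-0.55, adjusted p = 0.0307). It was higher in KMS11 for ENSG00000259001 (1.19, adjusted p = 0.0253) and ENSG00000263731 (0.95, adjusted p = 0.00806). Values of ENSG00000259001 cannot be separated from those of RPPH1, the abundant gene inside it. The groups hold 2 libraries each, so no single library could be tested as standing apart.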

How the results depend on the processing

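The 27 line differences and 16 responses in H929 stayed within 1.5 times under every alternative run (21 to 27 and 11 to 19). Of the calls, 14 of 27 for the line and 9 of 16 in H929 held in all alternatives, as did 2 of 7 for the response difference and none across both lines or in KMS11. The 2 members called across both lines became 0 at an adjusted p under 0.01 or without the line term, 9 with DESeq2 or a GC trend, 10 with GC and length, 4 with library size scaling, a minimum count of 50 or protein-coding genes and lncRNAs alone, 12 with no filter, 1 with limma on TPM and 15 as the mean of the within-line contrasts. The 1 member called in KMS11 became 0 at 0.01 or with limma, 2 with DESeq2, 4 with no filter and 5 with GC or with GC and length. The 7 response differences became 3 at 0.01, 11 with DESeq2, 12 with a minimum count of 50, 13 with GC or with GC and length and 4 with limma. Without 1 library at a time the counts were 0 to 3 across both lines, 0 to 3 in KMS11 and 2 to 11 for the difference. With the replicate block the counts were 0 across both lines, 17 in H929, 6 in KMS11 and 13 for the difference, and with the block and the GC trend 10 in KMS11 and 16 for the difference. The labels do not say that a replicate number marks a shared culture or day, and deviations of same-numbered libraries correlated at 0.742 in H929 and -0.0626 in KMS11 over 5243 genes, so the pairing was not settled and the block was not used in the report. In H929 the GC trend gave 13 rises and 6 falls.

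With limma on TPM the line differences of DUXAP8 (0.034), THAP9-AS1 (0.105) and OTUD6B-AS1 (0.136) turned sign without passing, as did OIP5-AS1 with GC (-0.003) and with GC and length (-0.05). The cause was not tested. A limit of 500 gave 56 members, 2000 gave 11 and 1000 in each line gave 19. Same-strand overlap held for 6 members, 2 of which had most of their exon bases shared, and for 3 with the transcripts listed in the files. The last count leaves out transcripts that changed version, which for OIP5-AS1 were all of its transcripts in release 44, so it could not show an overlap there. Depth did not limit the members, apart from those near 0 in a line.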

Other observations

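Of the 15 SNHG genes, GAS5 and ZFAS1 left out by name, whose introns hold snoRNAs, 9 fell with fluvastatin in H929 and none rose, where 18% of all genes tested and 30.9% of those with a mean count of at least 1000 fell, with a median log2 fold change of -0.52. SNHG1 had -1.57, SNHG12 -1.25 and SNHG17 -1.22 there. None passed the threshold in KMS11, where the median was -0.175 and 2.03% of all genes tested passed. The response was lower in KMS11 than in H929 for none of the 15. It was higher for 6, beside 9.92% of all genes tested and 16.3% of those with a mean count of at least 1000. Between the lines in ethanol, 1 was higher and 9 lower in KMS11, where 34.8% of all genes tested and 29.3% of those at this level were lower, with SNHG32 (-2.04) and SNHG6 (-1.73) the lowest.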
